A study of Cervus nippon with 40 samples.

Results

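The miRNAs described here are bta-miR-409a and bta-miR-409b, 2 of the 305 known miRNA names that at least 1 library outside antler lists, among 500 names in all 40 libraries. They are called miR-409a and miR-409b in what follows. They were chosen by name, and chosen from earlier results of the same tables in which both were high in adrenal. Their adrenal level and their change from juvenile to aged are therefore given as a description, with no test. The names follow cattle miRNAs, and neither name says which strand of its hairpin the reads came from.

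The libraries are small RNA libraries of male Sika Deer of the Shuangyang breed, from 10 organs at 4 development stages. Deer were 1 year old at the juvenile stage, 3 years at adolescence, 5 years when adult and 10 years when aged, and the labels name no treatment. The organs were brain, adrenal, testes, antler, spleen, kidney, liver, lung, heart and skeletal muscle. Each library pooled RNA of 3 deer, the 12 deer fell into 3 at each stage, and there was 1 library for each organ and stage. The organs of a stage therefore come from the same animals, and no value here has a replicate of its own stage and organ. In whole organs, fewer cells that hold a miRNA and less of it in each cell cannot be told apart.

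miRNAs are short RNAs that guide Argonaute proteins to target mRNAs and lower their output. In mammals miR-409 lies in the DLK1-DIO3 region, an imprinted domain in which one large miRNA cluster is made from the maternal chromosome together with the long noncoding RNAs MEG3, MEG8 and MEG9. Members of this cluster are known for high levels in embryo, placenta and brain and for a fall after birth in many tissues. The adrenal gland holds a cortex that makes steroids and a medulla of neuroendocrine cells that make catecholamines.

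Levels are reads per 1000000 miRNA reads of the library (RPM), the unit of the deposited values. The library total is the sum over the listed names, and some names held equal levels. let-7b and miR-3596 both had a mean of 120192 RPM in adrenal and 287955 RPM in brain, and miR-22-3p and miR-3600 both 15588 RPM in adrenal. Reads given to more than 1 name would count more than once in the total, the depth and the percents. The part of this in the levels by organ was not tested. The depth was 41866 to 7759033 miRNA reads per library (median 744715), so that 1 read stood for 0.129 to 23.9 RPM. The adrenal libraries held 598098 to 935346 reads. Both names were listed in all 40 libraries, miR-409a with 19 to 13849 reads and miR-409b with 22 to 69610. All intervals below cover counting error at 95% and no other source of error. Known names entered comparisons with other miRNAs when 4 libraries or more held 10 reads or more of them. Over these tested names, 3 libraries were nearest by Pearson's r to a library of another organ. The adolescence lung paired with the aged spleen in this way (r = 0.95), and the juvenile testes stood nearest to the juvenile adrenal (r = 0.92).

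Both miRNAs were highest in adrenal at 4 of 4 stages, and brain followed in the order of organ means. In adrenal miR-409a was at 10204 RPM in the juvenile, 13584 in adolescence, 10119 in the adult and 14806 in the aged library. In adrenal miR-409b was at 29907, 41866, 79696 and 74422 RPM at the same stages. In RPM the highest adrenal library of miR-409a was thus 1.46 times the lowest, with a mean of 12178 ± 2382 RPM (SD over the stages, n = 4). miR-409b had its higher RPM in the adult and aged libraries and a mean of 56473 ± 24362 RPM (SD, n = 4). The order of the stages depended on the scaling, as given below. miR-409b made up 2.99% to 7.97% of an adrenal library and stood at place 2 to 9 among its known names. miR-409a made up 1.01% to 1.48% and stood at place 12 to 17. Of all reads of miR-409a 66.1% came from the adrenal libraries, and of all reads of miR-409b 74.7%, where these libraries held 5.75% of all miRNA reads. With libraries weighed alike, adrenal held 63.7% of the summed RPM of miR-409a and 71.0% of that of miR-409b, in 4 of 40 libraries.

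**Figure D1:**
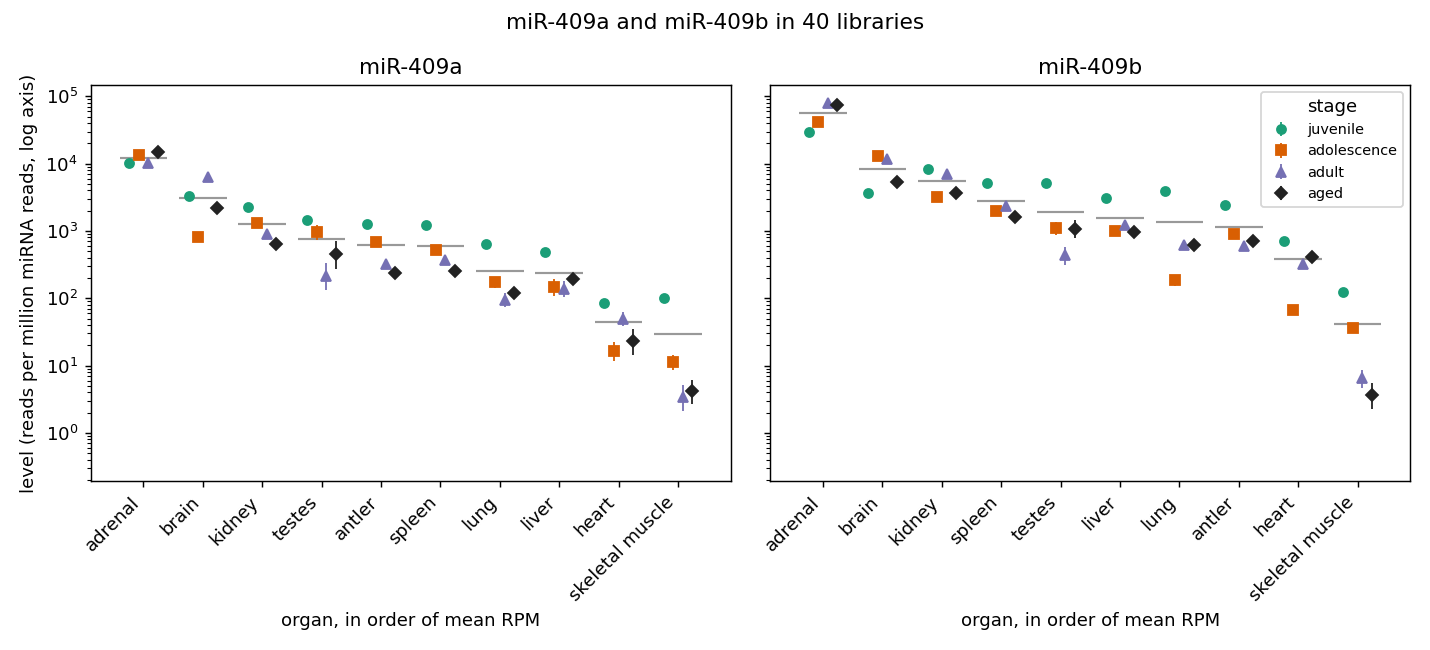
Level of miR-409a (left) and miR-409b (right) in each of the 40 libraries, in RPM on a log axis, with organs in the order of their mean. Points are single libraries coloured by stage, bars are exact Poisson 95% intervals of the reads and grey lines are the means over 4 stages. Adrenal lies above the other organs at each stage, and the juvenile point is the highest of 8 organs in each panel.

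Brain came second in the mean of both miRNAs. miR-409a in brain was at 3259 RPM in the juvenile, 806 in adolescence, 6239 in the adult and 2161 in the aged library. miR-409b in brain was at 3658, 12874, 11675 and 5278 RPM. The adolescence brain was thus the lowest brain library of miR-409a and the highest of miR-409b. The ranges of adrenal and brain did not overlap for either miRNA.

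Kidney, spleen and testes held intermediate levels. In kidney miR-409a was at 2240, 1332, 886 and 630 RPM from juvenile to aged, and miR-409b at 8311, 3144, 7013 and 3612 RPM. In spleen miR-409a was at 1209, 527, 374 and 259 RPM and miR-409b at 5184, 1961, 2341 and 1626 RPM. In testes miR-409a was at 1465, 952, 216 and 454 RPM and miR-409b at 5070, 1101, 432.9 and 1075 RPM. The juvenile library was the highest of these organs for both miRNAs.

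In antler, liver and lung the means of miR-409b were below those of kidney, spleen and testes, while the mean of miR-409a in antler (629 RPM) lay between those of testes (772 RPM) and spleen (592 RPM). Their miR-409a levels ran from 237 to 1271 RPM in antler, from 138 to 482 RPM in liver and from 95.1 to 647 RPM in lung. Those of miR-409b ran from 605 to 2436 RPM in antler, from 979 to 3040 RPM in liver and from 185 to 3959 RPM in lung.

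Heart and skeletal muscle held the lowest means. In heart miR-409a was at 85.6, 16.4, 49.97 and 23.2 RPM and miR-409b at 703, 66.8, 327 and 412.1 RPM. In skeletal muscle miR-409a was at 99.4, 11.2, 3.39 and 4.15 RPM and miR-409b at 122.1, 36.3, 6.46 and 3.65 RPM. These libraries are filled by miR-1, a miRNA of striated muscle, which took 91.1% to 92.9% of the reads in skeletal muscle and 15.1% to 81.5% in heart. With size factors that do not rest on the total, the place of skeletal muscle among the 10 organs moved from 10 to 4 (TMM) or 5 (DESeq2) for miR-409a, and to 7 or 9 for miR-409b. Between neighbours in the order of means, the ranges overlapped for every pair but adrenal and brain for both miRNAs, and liver and heart for miR-409a.

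The mean adrenal level was 3.91 times that of brain for miR-409a and 6.75 times for miR-409b. At single stages the adrenal level of miR-409a was 3.13 times that of the next organ in the juvenile, 10.2 times in adolescence, 1.62 times in the adult and 6.85 times in the aged libraries. That of miR-409b was 3.60, 3.25, 6.83 and 14.1 times. The next organ was brain in these comparisons, except for kidney in the adolescence libraries of miR-409a and the juvenile libraries of miR-409b. The smallest lead of miR-409a thus fell in the adult, where brain was highest. Without the juvenile, adolescence, adult or aged libraries in turn, the lead of the miR-409a mean was 4.18, 3.01, 6.20 and 3.29 times.

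The size of the lead depended on the scaling. miR-7, a miRNA of endocrine cells, took 47.4%, 59.1%, 9.3% and 9.9% of the reads of the juvenile, adolescence, adult and aged adrenal libraries. With TMM factors the mean adrenal level was 2.42 times that of brain for miR-409a and 2.96 times for miR-409b, and with DESeq2 size factors 2.21 and 2.13 times. The scalings move all names of a library alike, and their shifts are given as log2 means of an organ's libraries against the mean of all 40 libraries. With TMM the shift was -0.999 in adrenal and -0.01 in brain, and with DESeq2 size factors it was -1.10 and 0.08. With the totals taken without miR-1 and miR-7, a scaling chosen after the data were seen, the mean adrenal level was 6.09 times that of brain for miR-409a and 9.41 times for miR-409b. With these totals miR-409b in adrenal was at 57613, 103033, 88069 and 82672 from juvenile to aged, highest in adolescence. It was at 19582, 26753, 26050 and 34085 with TMM and at 14273, 30271, 30868 and 31168 with DESeq2 size factors. The adrenal level of miR-409a ran from 11182 in the adult to 33430 in adolescence with the totals without miR-1 and miR-7. Adrenal lost the first place to brain in the adult for miR-409a (ratio 0.99 with TMM and 0.95 with DESeq2) and in adolescence for miR-409b (ratio 0.88 with DESeq2).

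**Figure D2:**
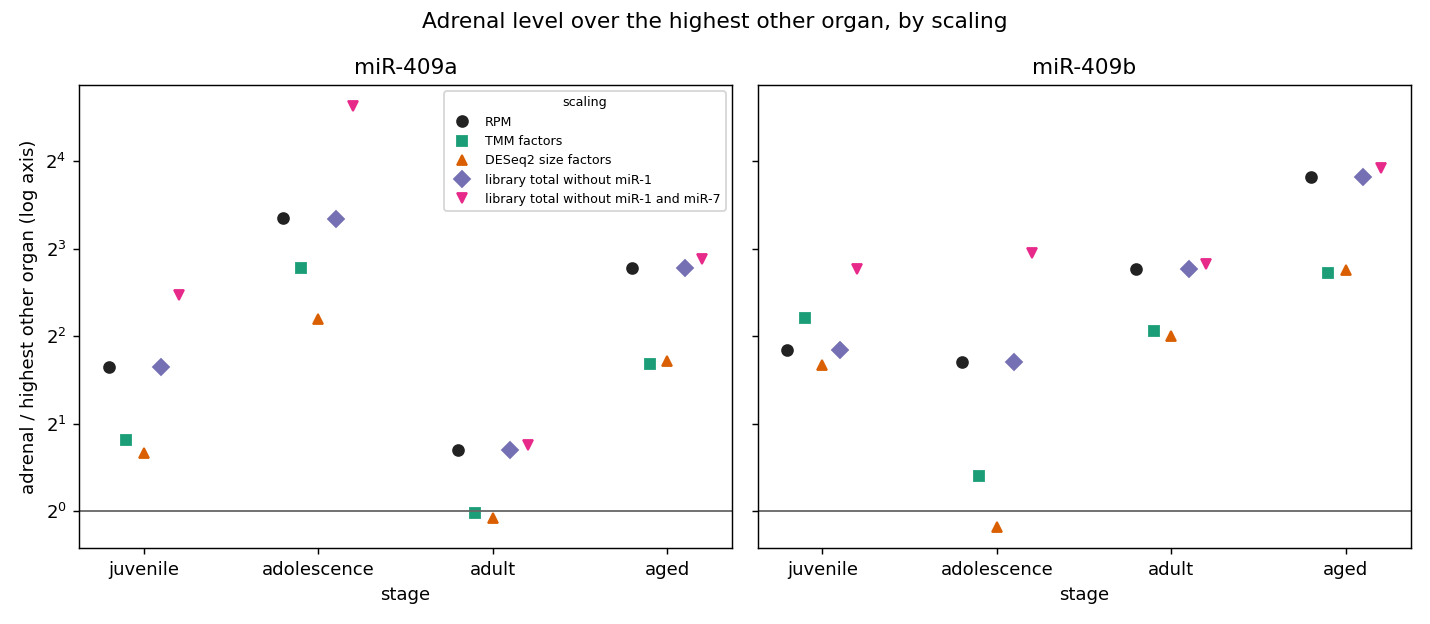
Adrenal level divided by that of the highest other organ at each stage (log axis), for miR-409a (left) and miR-409b (right) under 5 scalings of the reads. The line marks equal levels, and the points under it are the adult libraries of miR-409a with TMM (0.99) and DESeq2 (0.95) factors and the adolescence libraries of miR-409b with DESeq2 factors (0.88).

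Among the tested known names, 5 (4.03%) had at least 2 times the mean level of the next organ in adrenal. In the order of this ratio they were miR-409b, miR-7 (6.22 times), miR-412 (4.13 times), miR-409a and miR-33a (2.20 times). The highest level in adrenal at 4 of 4 stages was found for 4 names (3.23%), the same names without miR-33a. Both members belong to these sets because they were chosen for their adrenal level, so nothing is read from the counts.

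More reads carried the name miR-409b than miR-409a in 39 of 40 libraries. The exception was the aged skeletal muscle, with 25 reads of miR-409a and 22 of miR-409b. The comparison of the names by organ asks whether their balance was shared by the organs. It is taken within a library and does not depend on the scaling, and it is given as the percent of miR-409a in the reads of both.

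In heart the share of miR-409a was 10.8%, 19.7%, 13.2% and 5.3% from juvenile to aged. In liver it was 13.7%, 12.8%, 10.2% and 16.4%, and in spleen 18.9%, 21.2%, 13.8% and 13.7%. The geometric mean of the reads of miR-409b for 1 read of miR-409a was 7.82 in heart, 6.60 in liver and 4.998 in spleen. In kidney the share was 21.2%, 29.8%, 11.2% and 14.9%, and in adrenal 25.4%, 24.5%, 11.3% and 16.6%. Kidney, adrenal and spleen had the higher share in the juvenile and adolescence libraries, without overlap with the adult and aged ones.

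At the other end of the order, antler held 34.3%, 43.3%, 35.03% and 24.7% of miR-409a. Testes held 22.4%, 46.4%, 33.3% and 29.7%. Skeletal muscle held 44.9%, 23.6%, 34.4% and 53.2%, with an exact Clopper-Pearson interval of 38.1% to 67.9% in the aged library. In these organs the geometric mean was 1.94 reads of miR-409b for 1 of miR-409a in antler, 2.07 in testes and 1.60 in skeletal muscle. The shares of heart, liver and spleen lay below those of antler, testes and skeletal muscle without overlap.

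Brain and lung each held 1 adolescence library far from the other stages. In brain the share was 47.1% in the juvenile, 5.9% in adolescence (interval 5.3% to 6.5%), 34.8% in the adult and 29.0% in the aged library. In lung it was 14.0%, 48.3% (interval 41.7% to 54.9%), 13.3% and 16.1%. The adolescence lung is one of the libraries nearest to another organ. The departures went in opposite directions, to less miR-409a in brain and to more in lung.

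**Figure D3:**
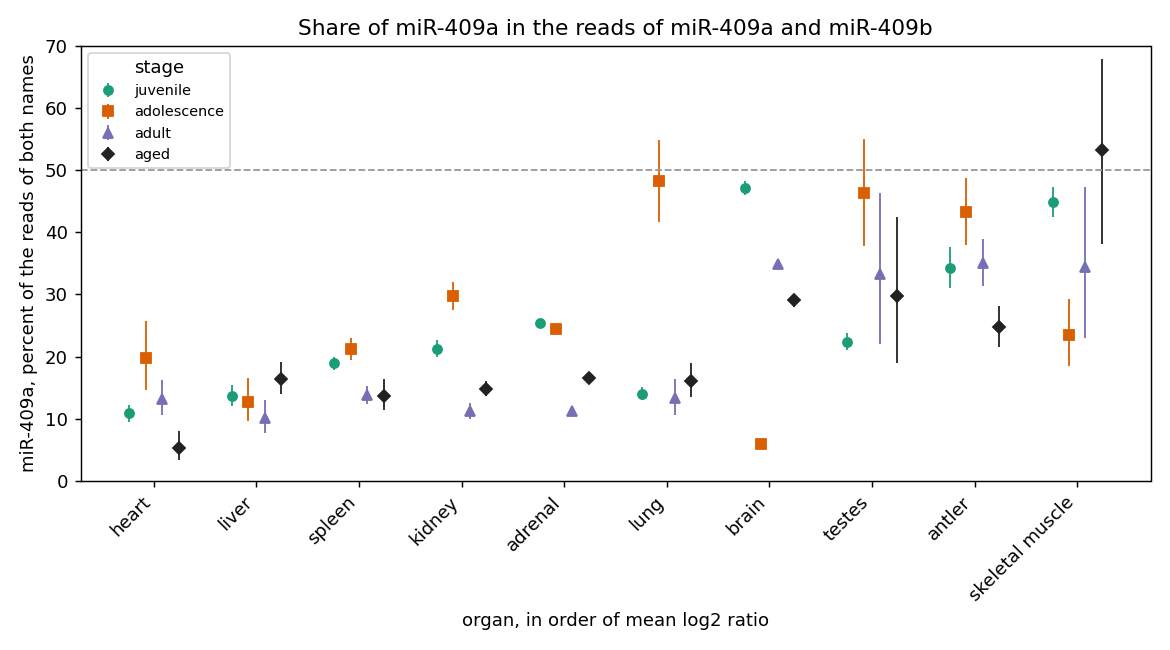
Percent of miR-409a in the reads of miR-409a and miR-409b in each of the 40 libraries, with organs in the order of the mean log2 ratio. Bars are exact Clopper-Pearson 95% intervals of the reads and the dashed line marks equal reads. Heart, liver and spleen stay at or below 21.2%, antler stays at or above 24.7%, and the adolescence libraries of brain (5.9%) and lung (48.3%) lie apart from the other stages.

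The ratio was tested over the 9 organs outside adrenal with 0.5 reads added to each count. Organ means of the log2 ratio of miR-409a to miR-409b ran from -2.97 in heart to -0.68 in skeletal muscle. The organs differed in a permutation test of the F statistic, with organ labels exchanged within each stage (F = 3.02, p = 0.0200, 100000 resamples). This call was not firm. It was lost without the juvenile (permutation p = 0.122), the adult (0.193) or the aged libraries (0.215), without heart (0.0619) or liver (0.0514), in the 7 organs with at least 100 reads of both names in every library (0.123), and with a quasi-binomial statistic that weights libraries by their reads (0.657). It was kept without the adolescence libraries (permutation p = 2.0e-05), without brain and lung (0.00033, chosen after the values were seen) and without the 3 organs that hold a library nearest to another organ (0.0300, also chosen after). The test treats the organs of a stage as exchangeable, though they come from the same deer.

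The names whose levels followed the ratio of miR-409a to miR-409b most closely within organs were picked after the values were seen. They were miR-192 (r = 0.75), miR-17-5p (0.72) and miR-30b-5p (0.67) upward and miR-197 (-0.73), miR-574 (-0.68) and miR-1343-3p (-0.65) downward, over 40 libraries with organ means taken out. In the adolescence brain miR-197 was at 25237 RPM, against 646 to 5046 RPM in the other brain libraries, and miR-192 at 73.3 RPM, against 1685 to 9093 RPM. These names were chosen for following the ratio, so their levels in this library are no separate result. The part of these differences between libraries in the ratio was not tested.

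From juvenile to aged both miRNAs were lower in most organs, and adrenal went the other way. miR-409a was lower in the aged library in 9 of 10 organs, in 8 of them by at least 2 times, with a median log2 change of -1.86, or 3.62 times lower. miR-409b was lower in 8 of 10 organs, in 7 of them by at least 2 times, with a median of -1.65, or 3.15 times lower. In 5.65% of the tested known names the aged level was counted as lower in at least 9 organs, and in 14.5% in at least 8. A median change of -1 or lower was found in 12.9% of the names. The members were chosen with these changes known, so nothing is read from the shares. The median of the medians of all tested names was 0.11. The shares and this median were computed with 0.5 reads added to each count. A name with no read at either stage of an organ then counts as lower or higher by library depth alone. The part of depth in these values was not tested.

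Skeletal muscle showed the largest difference, with a log2 change of -4.58 for miR-409a (771 reads in the juvenile and 25 in the aged library, interval -5.22 to -4.01) and -5.06 for miR-409b (947 and 22 reads, interval -5.74 to -4.46). Lung followed with -2.44 for miR-409a and -2.68 for miR-409b. Antler stood at -2.42 and -1.76, and spleen at -2.23 and -1.67. The aged spleen that enters here is one of the libraries nearest to another organ.

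Heart stood at -1.88 for miR-409a and -0.77 for miR-409b, where miR-1 went from 57.8% to 15.1% of the reads. With the totals taken without miR-1 the heart changes were -2.89 and -1.78. The median change of the tested names in heart was 1.16, with 0.5 reads added to each count, unlike the changes of the members. A name with no read at either stage then takes a change set by library depth alone. The part of depth in this median was not tested. Kidney stood at -1.83 for miR-409a and -1.20 for miR-409b, testes at -1.69 and -2.24, and liver at -1.33 and -1.64. In all of these organs the counting intervals lay below 0 for both miRNAs.

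In brain miR-409a was lower (-0.59, interval -0.67 to -0.51) and miR-409b was higher (0.53, interval 0.47 to 0.59). In adrenal both were higher, miR-409a by 0.54 (interval 0.49 to 0.58) and miR-409b by 1.32 (interval 1.29 to 1.34). The direction of miR-409a in adrenal depended on the scaling. Its change was 0.02 with TMM factors and 0.35 with DESeq2 size factors. With the totals taken without miR-1 and miR-7, chosen after the data were seen, its change was -0.26. For miR-409b the adrenal change stayed positive under these scalings, at 0.80, 1.13 and 0.52. Whether the adrenal differs from the other organs in its change was not tested.

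**Figure D4:**
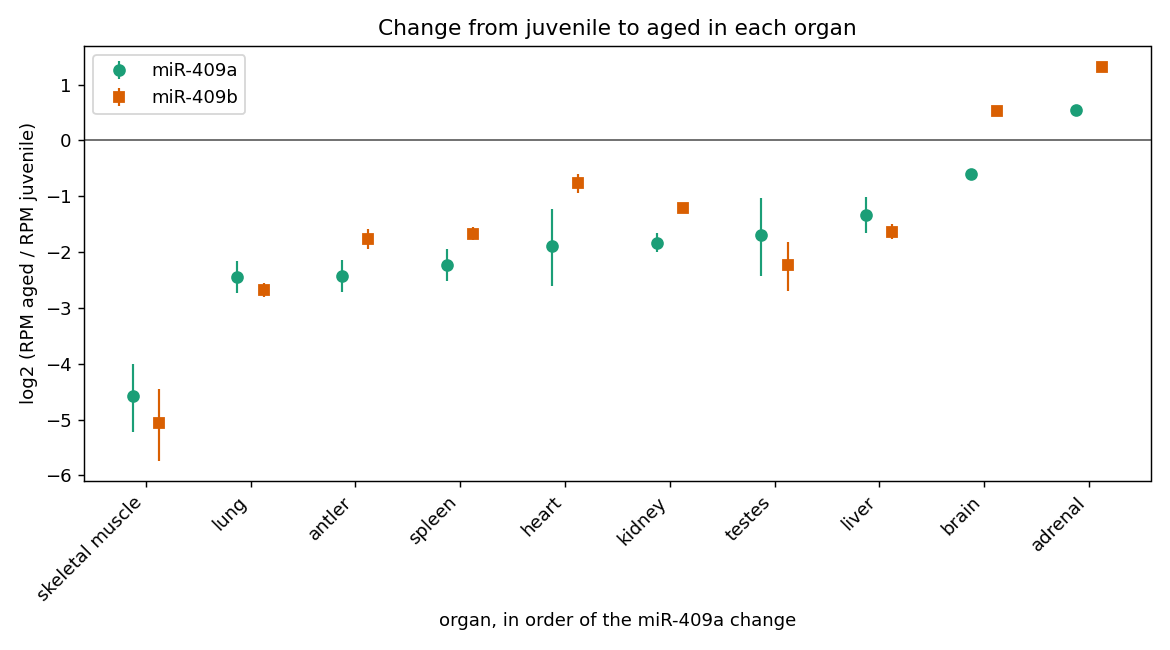
The log2 ratio of the aged to the juvenile level (RPM) in each organ for miR-409a (circles) and miR-409b (squares), with exact conditional 95% intervals of the reads of the 2 libraries. Both names lie below 0 in 8 organs, with skeletal muscle lowest at -4.58 and -5.06, and miR-409b lies above 0 in brain and adrenal.

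The course over the stages was not one steady fall in either miRNA. The juvenile library was the highest of its organ in 8 of 10 organs for each miRNA. From juvenile to adolescence miR-409a was lower in 9 organs, in 6 of them by at least 2 times, and miR-409b was lower in 8 organs, by at least 2 times in each. From adolescence to adult miR-409a was lower in 8 organs, in 3 of them by at least 2 times, and higher by at least 2 times in 2. At this step miR-409b was lower in 4 organs, in 2 of them by at least 2 times, and higher by at least 2 times in 3. From adult to aged miR-409a was lower in 5 organs and miR-409b in 6. When the mean of adult and aged was set against the mean of juvenile and adolescence, the medians were -1.28 for miR-409a and -0.57 for miR-409b. Stage differences rest on 4 pools of 3 deer, however many organs are counted.

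The ratio of miR-409a to miR-409b was lower in the aged than in the juvenile library in 6 of 10 organs, with a median log2 change of -0.59. It ran from -1.12 in brain to 0.57 in testes. The share of miR-409a had a median over 10 organs of 21.8% in the juvenile, 24.0% in adolescence, 13.6% in the adult and 16.5% in the aged libraries, with ranges that overlapped at all stages.

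The levels of both miRNAs went together over the libraries. Pearson's r of log2(RPM + 1) was 0.94 over 40 libraries, 0.97 over the 10 organ means and 0.74 with organ means taken out. Libraries of a stage share deer and those of an organ share tissue, so these values are a description. The 5 names most like miR-409a over 40 libraries were miR-409b (0.94), miR-431 (0.91), miR-3957 (0.89), miR-433 (0.85) and miR-7 (0.83). Those most like miR-409b were miR-3957 (0.94), miR-409a (0.94), miR-433 (0.92), miR-431 (0.85) and miR-151-3p (0.82). With organ means taken out, miR-7 kept an r of 0.26 with miR-409a, and miR-3957 one of 0.86 with miR-409b.

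Of a list of 45 miRNA numbers of the DLK1-DIO3 region, 27 names were found and 6 passed the filter on reads. Their highest organ mean was in adrenal for miR-431, miR-412, miR-493 and miR-541 and in brain for miR-433 and miR-134, and in no other organ. For miR-412 the adrenal mean was 4.13 times that of the next organ. The adrenal lead was small for miR-431 (1.14 times), miR-493 (1.12 times) and miR-541 (1.03 times). Over all tested known names 16 (12.9%) had their highest mean in adrenal and 16 (12.9%) in brain, and nothing particular to the list is read from its counts. In adrenal miR-433 had a mean of 3099 RPM, miR-431 of 159 RPM and miR-412 of 64.1 RPM, all below the mean of miR-409a. For 3 of the 6 names the change from juvenile to aged rested on 10 reads or more, both stages together, in at least 8 organs. Its median over 10 organs, with 0.5 reads added to each count, was -0.37 for miR-433, -0.62 for miR-431 and -2.29 for miR-493. miR-412, miR-541 and miR-134 reached 10 reads in 2, 2 and 4 organs, and no change is given for them.

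miR-409a and miR-409b together made up 90.3% of the reads of the region as listed, themselves included. In adrenal they made up 93.2% to 97.2% (median 96.2%). In brain, where miR-433 was at 786 to 12686 RPM, they made up 51.5% to 87.7% (median 65.7%), and the lowest value outside brain was 84.5%, in heart.

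Markers of other organs were looked for in adrenal, and their levels ran from 0 to 6601 RPM, leaving out the endocrine miRNAs. The planned markers miR-9 and miR-219 of brain, miR-122 of liver and miR-223 of leukocytes were not listed under the names searched. They could not be checked. miR-124a, a neuronal miRNA, was at 8.36 to 72.5 RPM in adrenal, against a mean of 32291 RPM in brain. miR-192, of kidney and liver, was at 1194 to 6280 RPM in adrenal, against a mean of 162722 RPM in kidney. Of the striated muscle miRNAs, miR-1 was at 825 to 6601 RPM and miR-133a at 128 to 851 RPM, and miR-208b of heart was at 0 reads, against a mean of 42.7 RPM in heart. The red cell miRNA miR-486 was at 608 to 1019 RPM in adrenal. The leukocyte miRNAs miR-150 and miR-142-5p were at 4.79 to 10.7 and 3.34 to 43.1 RPM. The remaining listed markers, miR-206, miR-208a, miR-451, miR-194 and miR-142-3p, had means of 1.197 to 13.1 RPM in their own highest organ, so that their 0 to 3.51 RPM in adrenal, where 1 read stood for 1.07 to 1.67 RPM, says little. The part of RNA from other cells in the adrenal levels of miR-409a and miR-409b was not tested. Of the endocrine miRNAs, miR-7 had its highest mean in adrenal, at 93085 to 590536 RPM. miR-375 too had its highest mean there (4.47 RPM), but its 1.67 to 10.7 RPM likewise says little.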

How the data were processed

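Small RNA libraries of 10 organs at 4 stages were analysed. Per the labels and the methods of the study, the authors clipped adapters, dropped short reads and other classes of RNA, matched the remaining reads to miRBase 22.0 and predicted further miRNAs with miRDeep 2.0.5. The deposited values are RPM, the reads of a name per 1000000 miRNA reads summed over the listed names of the library, under a header that calls them tpm. A name with no read is not listed. Scaled back by the smallest value of each library, all 7982 values came out whole within 0.01 reads (largest distance 0.000243), and these reads were used for intervals, ratios and scaling.

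Members and lists were chosen with earlier results of these data known. The known names were narrowed to those listed outside antler after the tables were seen, since antler holds many names of its own. Named are the members, for each the 5 names with the highest r, and the 3 names of the DLK1-DIO3 list highest in adrenal. Names of at least 10 reads in at least 4 libraries were kept. Intervals were exact Poisson, Clopper-Pearson and conditional. The permutation test was checked on simulated data with an equal spread in all organs. In the libraries the SD of the log2 ratio ran from 0.32 in liver to 1.67 in brain, which the check did not cover. Since an organ and stage had 1 library, no test across names was made. Alternatives were TMM (edgeR 4.0.16), DESeq2 1.42.0, other totals, pseudocounts and filters, and leaving out stages and organs. Python 3.11.15, numpy 2.4.6, scipy 1.17.1 and R 4.3.3 were used.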

Additional observations from a re-analysis of the deposited data

Results flagged for a closer look

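The log2 ratio of miR-409a to miR-409b in the adolescence lung was -0.10, far from the other 3 lung libraries, with a gap to the nearest of 0.878 of the whole range. Such a gap was looked for in 33 groups of 4 values or more, from libraries or from changes by organ. Lung alone passed, and the ratio in brain did not. Chance gives such a gap in about 1 of 20 groups, a rate that this find did not exceed.

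The change from juvenile to aged was opposite in sign to that of most organs in 3 cases. In adrenal miR-409a changed by 0.54 and miR-409b by 1.32, and in brain miR-409b changed by 0.53, all on the log2 scale and with 1 library at each stage. The difference from the other organs was not tested.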

How the results depend on the processing

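The permutation p of the ratio between organs lost its call under several alternatives. It was 0.0200 as reported, 0.657 with the quasi-binomial statistic and 0.123 in the 7 organs with at least 100 reads of both names, the filter having been applied to whole organs to keep the design balanced. Leaving out each stage or organ in turn gave 2.0e-05 to 0.215, and the cause was not tested. With 1 or 5 reads added, with all 10 organs, without brain and lung, and without lung, spleen and testes it stayed under 0.05.

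The first place of adrenal at 4 of 4 stages went to 3 of 4 for miR-409a with TMM and DESeq2 factors and for miR-409b with DESeq2 factors, and the adrenal change of miR-409a turned to -0.26 with totals without miR-1 and miR-7. The adrenal lead kept its direction in the mean under all alternatives run, at 2.21 to 6.20 times for miR-409a and 2.13 to 9.41 times for miR-409b. The fall from juvenile to aged kept its direction in the median for both, with 7 to 10 organs lower for miR-409a and 6 to 8 for miR-409b, fewer organs being counted where some were left out. That of the ratio kept its direction too, with 5 to 8 organs lower. With at least 1 read in at least 4 libraries, 10 names in place of 5 had at least 2 times the level of the next organ in adrenal.

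The permutation test has the stage as a block, and the labels give no replicate number besides it. Depth limits the share of miR-409a most in 4 libraries with under 100 reads of both names, of which the smallest held 47.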
